A study of Mus musculus with 6 samples.

Results

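The genes described here are the glucose transporters, the enzymes of glycolysis and the lactate transporters, with their isoforms, in the mouse line MLO-Y4, whose cells resemble the osteocytes that live inside mineralised bone. The 34 genes were taken by symbol, for their place in the pathway, and were chosen with earlier results of these data known. All 34 were found among the 39174 gene rows of the deposited table. RNA was sequenced from 3 flow and 3 non-flow control cultures grown on collagen-coated glass slides. Flow cultures were placed in a parallel-plate chamber under oscillating flow with a shear of 10 dyn/cm² for 2 h and were then kept for 2 h in fresh medium. Non-flow cultures received a sham treatment alongside. Triplicates came from separate days, and no genetic change or added agent is given for either group. The comparison asks which transcripts differed after flow.

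Glycolysis splits glucose into pyruvate in the cytosol and yields ATP and NADH without oxygen. Glucose enters through transporters of the GLUT family, is trapped by hexokinase and is committed by phosphofructokinase, and lactate dehydrogenase with the monocarboxylate transporters returns NAD+ and exports lactate. Most steps have several isoforms encoded by separate genes, which differ in tissue distribution, kinetics and regulation. Cells of the osteoblast lineage, from which osteocytes arise, are known to rely heavily on glycolysis, and many of these genes are known targets of hypoxia-inducible factor (HIF).

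Values are FPKM, fragments normalised for transcript length and library depth, so levels of different genes can be compared per length. The depth read from the smallest FPKM steps was 11020000, 5750000 and 19230000 reads in flow libraries 1 to 3, and 17910000 to 19010000 reads in the controls, so the first 2 flow libraries had the fewest reads. A count of 3 reads per kilobase corresponded to 0.156 to 0.521 FPKM. Flow libraries 1 and 2 also stood apart by base composition. Among the fifth of all tested genes richest in G and C, the median log2 deviation from the gene's mean was -0.19 and -0.23 in flow libraries 1 and 2, but 0.09 in flow library 3 and 0.09 to 0.11 in the controls. Results are therefore also given with flow library 3 alone against the 3 controls, as a value without a replicate, and with each library's trend on GC content removed. Of 7 osteocyte markers, Sost, Mepe and Fgf23 were listed at 0 in all 6 libraries and Dmp1 did not pass 0.0354 FPKM, while Pdpn, a marker of early osteocytes, lay between 357.5 and 420.4 FPKM. The defining markers of the mature osteocyte were thus at or near 0. Of the further markers, Phex lay between 4.06 and 7.46 FPKM and Gja1 between 413.6 and 503.2 FPKM. For 6 osteoblast markers the summed levels were 209 to 276 FPKM in flow cells and 271 to 316 FPKM in controls. Most of this was Col1a1 and Col1a2. Runx2, Alpl and Bglap did not pass 9.95 FPKM in any library, and Sp7 did not pass 0.388 FPKM. For 3 adipocyte markers the sums were 4.14 to 4.68 FPKM in flow cells and 4.16 to 4.5 FPKM in controls.

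The windows upstream of 4 of the genes are shown because they span the range of differences described below: Slc2a1 and Pfkl lay far below the controls in flow cells, Pgk1 lay moderately below, and Slc16a1 lay above. Each is a stretch of 220 bases that ends just upstream of a RefSeq start of transcription (build GRCm38.p6, which is mm10), written along the gene's own strand. Capitals mark the letters ACGTG or GCGTG, the core recognised by HIF, on either strand, so that CACGT and CACGC are the same motifs read from the other strand. In Slc16a1 the first marked stretch is the E-box CACGTG, which holds ACGTG on both strands. The windows lie at chr4:119108495-119108714 on the plus strand for Slc2a1, at chr10:78009838-78010057 on the minus strand for Pfkl, at chrX:106186850-106187069 on the plus strand for Pgk1 and at chr3:104638414-104638633 on the plus strand for Slc16a1.
Slc2a1: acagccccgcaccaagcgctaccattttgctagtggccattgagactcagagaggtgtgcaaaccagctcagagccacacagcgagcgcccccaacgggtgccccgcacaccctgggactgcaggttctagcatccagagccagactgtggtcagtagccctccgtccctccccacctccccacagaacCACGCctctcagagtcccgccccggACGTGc
Pfkl: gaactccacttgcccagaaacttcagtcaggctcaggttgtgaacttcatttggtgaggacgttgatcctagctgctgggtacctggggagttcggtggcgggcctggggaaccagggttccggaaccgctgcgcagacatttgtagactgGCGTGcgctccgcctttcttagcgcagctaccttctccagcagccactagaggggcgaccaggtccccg
Pgk1: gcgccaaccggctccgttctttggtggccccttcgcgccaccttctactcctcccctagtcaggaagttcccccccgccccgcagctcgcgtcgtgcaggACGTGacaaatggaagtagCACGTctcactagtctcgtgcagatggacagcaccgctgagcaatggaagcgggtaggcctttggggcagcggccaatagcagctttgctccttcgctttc
Slc16a1: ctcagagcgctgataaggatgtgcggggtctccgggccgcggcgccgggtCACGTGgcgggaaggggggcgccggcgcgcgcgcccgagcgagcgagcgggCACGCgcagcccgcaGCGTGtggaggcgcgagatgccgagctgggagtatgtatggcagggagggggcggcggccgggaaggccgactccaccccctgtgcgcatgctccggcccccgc

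RefSeq windows were matched for 31 of the 34 genes. ACGTG was found on either strand upstream of 13 of these 31 genes (41.9%), against 16.2% of all 27025 genes with a window. GCGTG was found upstream of 17 of 31 genes (54.8%), against 27.6% of all genes. The E-box CACGTG, whose matches are also matches to ACGTG, was found upstream of 4 of 31 genes (12.9%), against 5.73% of all genes. The windows of these genes had a median GC content of 55.9%, against 51.8% in all windows, and both motifs of the HIF core are rich in G and C. Genes here had more start sites each than genes at large, and counted per window the shares were 32.7% against 14.4% for ACGTG, 44.9% against 25.1% for GCGTG and 8.16% against 5.01% for CACGTG. The windows shown above each hold a match. Neither ACGTG nor GCGTG was found upstream of Hkdc1, Adpgk, Gpi1, Tpi1, Pgam2, Bpgm, Eno2 and Slc16a3. The tested genes among these had fold changes below 0, as in Gpi1 and Tpi1, and above 0, as in Bpgm. A match is a string of letters and not a measured binding site.

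Across the pathway, most transcripts had lower values in flow cells, but no single gene passed the test. Of the 34 genes, 28 averaged 1 FPKM or more across all 6 libraries and were tested. None of the 28 had an adjusted p under 0.05, the range being 0.559 to 0.976 (limma on log2(FPKM + 1), two-sided, Benjamini-Hochberg over 11957 genes). In the same fit 0.00836% of all tested genes were called lower and 0.00836% higher. At an unadjusted p under 0.05, 14 of the 28 genes were lower in flow cells, where 4.82% of all tested genes were, and 0 were higher, where 3.7% of all tested genes were. Slc16a3 entered the test through its controls alone, since its flow mean was 0.591 FPKM, and its lower value is therefore fixed by the filter. Without it, 13 of 27 genes had an unadjusted p under 0.05 and were lower. With 3 cultures a group, the p-values rest on the variation between cultures. In bulk RNA, fewer cells of a type and less RNA per cell cannot be told apart.

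The values of the libraries showed the same pattern. In 14 of the 28 genes all 3 flow values lay below all 3 control values, a pattern found in 8% of all tested genes. In 1 gene, Slc16a1, all 3 flow values lay above the controls, a pattern found in 7.12% of all tested genes. The other 13 overlapped. The low gene Ldhb, which was not tested, also had all flow values below the controls, so that 15 of 34 genes had this pattern and 1 of 34 the opposite one, beside 6.95% and 5.12% of all 20517 genes with a value above 0. In the other deposited table Ldhb lay the other way, at 0.832 to 1.19 FPKM in flow cells and 0 to 0.637 FPKM in controls. The median log2 fold change of the 28 genes, flow minus control, was -0.42, with 22 below 0 and 6 above 0, while the median of all tested genes was -0.01. Without Slc16a3, 13 of 27 genes lay below the controls, 1 lay above and the median was -0.42. These counts are a description of genes kept by a filter on level.

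**Figure D1:**
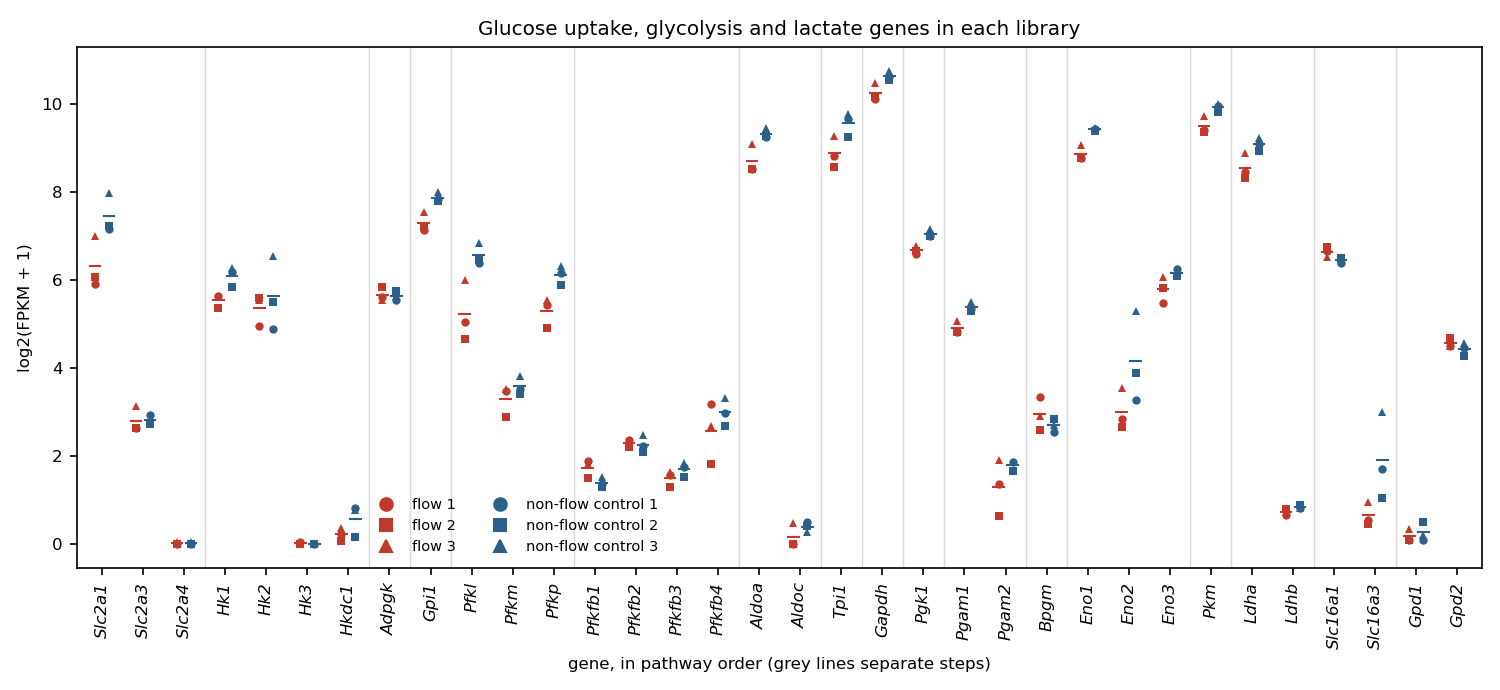
Level of each of the 34 genes in each library, as log2(FPKM + 1), with genes in pathway order and flow libraries (red) left of non-flow controls (blue); short bars are group means and marker shapes are libraries 1 to 3. In 14 of the 28 tested genes all red values sit below all blue ones, in 13 the groups overlap, and in Slc16a1 the red values sit above.

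Glucose uptake rested on Slc2a1, which encodes the widely expressed transporter GLUT1. Slc2a1 (ENSMUSG00000028645, mm10 chromosome 4, 119108711 to 119137983, plus strand) had 59.3, 66.4 and 126.7 FPKM in flow libraries 1 to 3, against 142.6, 149.2 and 251.1 FPKM in non-flow controls 1 to 3. All flow values lay below the controls, with flow 3 nearest to them, and the flow mean was 46.5% of the control mean. The log2 fold change was -1.13 with SE 0.35 (limma, adjusted p = 0.559). With flow library 3 alone it was -0.46, and with the GC trend removed -1.0. Slc2a3, which encodes the high-affinity transporter GLUT3, stood far lower, at 5.2, 5.19 and 7.81 FPKM in flow cells and 6.57, 5.6 and 5.98 FPKM in controls. Its groups overlapped, with a log2 fold change of -0.02 (SE 0.18). Slc2a4, the insulin-responsive transporter GLUT4 of muscle and fat, was listed at 0 in 4 libraries and did not pass 0.0226 FPKM.

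The balance of the uptake isoforms was compared next. Slc2a1 made up 93.0% of the summed FPKM of the 3 uptake genes in flow cells, against 96.5% in controls (means of 3 libraries each). The log2 ratio of Slc2a1 to Slc2a3, each with 1 FPKM added, was 3.53 ± 0.30 in flow cells and 4.64 ± 0.48 in controls (SD, n = 3 each), with no overlap. The difference of -1.12 had an exact two-sided permutation p of 0.1, the smallest that 3 against 3 allows, and an adjusted p of 0.333 over 10 isoform ratios. In the other deposited table the difference was -0.20, and Slc2a3 was listed there at 25.4 FPKM in non-flow control 1.

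Hexokinase, which traps glucose as glucose 6-phosphate, was shared about evenly between a pair of isoforms. Hk1 (ENSMUSG00000037012, chromosome 10, 62268855 to 62379908, minus strand), the housekeeping isoform bound to mitochondria, had 49, 40 and 48.3 FPKM in flow cells, against 72, 56.2 and 76.8 FPKM in controls. The flow values lay below all controls, and the log2 fold change was -0.56 with SE 0.15, or -0.48 with flow library 3 alone. Hk2, the inducible isoform of muscle and growing cells, had 29.9, 47.4 and 45.4 FPKM in flow cells, against 28.7, 44.3 and 91.9 FPKM in controls. Its groups overlapped, with control 3 far above the rest, and its log2 fold change of -0.28 had an SE of 0.43 and was 0.17 without control 3. Hk1 supplied 53.0% of hexokinase FPKM in flow cells and 57.4% in controls, and the ratio of Hk1 to Hk2 differed by -0.28 on the log2 scale (exact permutation p = 0.7). Leaving out 1 library turned this difference to 0.14 (without control 1) or moved it to between -0.07 (without flow 2) and -0.64 (without control 3). Hkdc1, a hexokinase-domain protein, stayed between 0.0523 and 0.283 FPKM in flow cells and between 0.117 and 0.752 FPKM in controls, and Hk3, a blood-cell isoform, was listed at 0 in 5 libraries and at 0.0336 FPKM in flow library 1. Macrophage markers summed to 1.92 to 2.75 FPKM in flow cells and 1.44 to 3.33 FPKM in controls. Most of this was Cd68, while Ptprc did not pass 0.0142 FPKM, Csf1r did not pass 0.099 FPKM and Adgre1 was not found. Adpgk, which phosphorylates glucose with ADP in place of ATP, had 47.9, 56 and 45.7 FPKM in flow cells and 45.7, 52.7 and 48.7 FPKM in controls. Its flow mean, 49.9 ± 5.41 FPKM, was within the spread of that of Hk1, 45.8 ± 5.01 FPKM (SD, n = 3 each). Its groups overlapped, with a log2 fold change of 0.02 (SE 0.11).

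Glucose-6-phosphate isomerase, the next enzyme, is encoded by Gpi1 (ENSMUSG00000036427, chromosome 7, 34201330 to 34230336, minus strand). It had 140.3, 146.1 and 186.8 FPKM in flow cells, against 227.1, 220.1 and 254.2 FPKM in controls. The flow values lay below all controls, with a log2 fold change of -0.57 (SE 0.13) and of -0.32 with flow library 3 alone. Of its exon bases 11.5% overlap a gene on the opposite strand, and the use of strand in the authors' counting is not given in the sources used here, so its value is uncertain to that extent.

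Phosphofructokinase commits fructose 6-phosphate to glycolysis, and its liver-type and platelet-type isoforms both lay below the controls in flow cells. Pfkl (ENSMUSG00000020277, chromosome 10, 77986947 to 78010083, minus strand), the liver type, had 32.1, 24.4 and 63.1 FPKM in flow cells, against 83.4, 86.5 and 113.9 FPKM in controls. Pfkp (ENSMUSG00000021196, chromosome 13, 6579768 to 6648777, minus strand), the platelet type, had 42.5, 29 and 45.6 FPKM in flow cells, against 70.9, 57.8 and 79 FPKM in controls. In both genes every flow value lay below every control, and the flow means were 42.1% and 56.4% of the control means. The log2 fold changes were -1.33 (SE 0.35) for Pfkl and -0.82 (SE 0.20) for Pfkp. With flow library 3 alone they were -0.56 and -0.58, close to each other. With the GC trend removed they were -1.13 and -0.85. Pfkm, the muscle type, had 10.2, 6.41 and 10.5 FPKM in flow cells and 10.4, 9.66 and 13.2 FPKM in controls, and overlapped (log2 fold change -0.29, SE 0.21).

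The isoform that led the step differed between libraries. Pfkl supplied 43.9% of the step's FPKM in flow cells and 54.0% in controls, Pfkp 45.6% and 39.6%, and Pfkm 10.5% and 6.33%. Pfkl was the highest isoform in all 3 controls and in flow library 3, and Pfkp was the highest in flow libraries 1 and 2. The log2 ratio of Pfkl to Pfkp differed by -0.50 with overlapping groups (exact permutation p = 0.2, adjusted p = 0.333), and by -0.33 without flow library 1 or -0.76 without flow library 3.

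The 4 bifunctional PFKFB enzymes, which make and break fructose 2,6-bisphosphate, the main activator of phosphofructokinase, were all low. Pfkfb4 led in every library but flow library 2, where Pfkfb2 was highest. Pfkfb4 had 8.07, 2.53 and 5.44 FPKM in flow cells and 6.86, 5.39 and 9 FPKM in controls (log2 fold change -0.43, SE 0.37). Its fold change was -0.06 without flow library 2, -0.74 without flow library 1, -0.26 without control 3 and -0.28 with the GC trend removed. Pfkfb2, the heart isoform, had 4.18, 3.59 and 4.01 FPKM in flow cells and 3.68, 3.24 and 4.53 FPKM in controls (0.04, SE 0.15). Pfkfb3, the inducible isoform with the highest kinase activity, had 1.96, 1.44 and 2.11 FPKM in flow cells and 2.34, 1.85 and 2.6 FPKM in controls (-0.20, SE 0.19). All of these overlapped. Pfkfb1, the liver and muscle isoform, had 2.68, 1.82 and 2.5 FPKM in flow cells and 1.57, 1.44 and 1.89 FPKM in controls, with a log2 fold change of 0.33 (SE 0.19), or of -0.09 in the other deposited table. Its groups overlapped by flow library 2, and the step's summed FPKM overlapped between groups as well.

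Aldolase, which splits fructose 1,6-bisphosphate, was almost wholly Aldoa, the muscle and ubiquitous type. Aldoa (ENSMUSG00000030695, chromosome 7, 126795234 to 126800751, minus strand) had 370.4, 367.2 and 541.4 FPKM in flow cells, against 608.8, 623.8 and 701.6 FPKM in controls. The flow values lay below all controls, with a log2 fold change of -0.62 (SE 0.17), of -0.25 with flow library 3 alone and of -0.43 with the GC trend removed. Aldoc, the brain type, was at 0, 0 and 0.398 FPKM in flow cells and 0.412, 0.328 and 0.208 FPKM in controls. Tpi1, triose-phosphate isomerase, had 454.7, 379.3 and 617.4 FPKM in flow cells, against 804.9, 608.8 and 875.4 FPKM in controls. Its groups overlapped only because flow 3 lay just above control 2, and its log2 fold change was -0.67 (SE 0.22).

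The next enzymes begin the payoff stage, in which ATP and NADH are made, and all 3 dominant ones lay below the controls in flow cells. Gapdh, which oxidises glyceraldehyde 3-phosphate and is widely used as a reference gene, had 1116, 1143 and 1419 FPKM in flow cells, against 1582, 1503 and 1736 FPKM in controls. Every flow value lay below every control, with a log2 fold change of -0.40 (SE 0.12) and of -0.18 with flow library 3 alone. Pgk1, phosphoglycerate kinase, had 96.2, 100.2 and 108.2 FPKM in flow cells, against 128.1, 127.0 and 141.6 FPKM in controls. Pgam1, the brain-type phosphoglycerate mutase, had 27.4, 27.3 and 32.3 FPKM in flow cells, against 39.5, 38.2 and 44.6 FPKM in controls. Neither gene overlapped, and their log2 fold changes were -0.38 (SE 0.09) and -0.48 (SE 0.11). These were among the least dependent on flow libraries 1 and 2, at -0.29 and -0.32 with flow library 3 alone.

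The side branch and the muscle form of this stretch had overlapping groups. Bpgm, which makes 2,3-bisphosphoglycerate, the haemoglobin effector of red cells, had 9.15, 5.03 and 6.51 FPKM in flow cells and 4.82, 6.12 and 5.52 FPKM in controls. It overlapped, with a log2 fold change of 0.26 (SE 0.21). The 3 erythroid markers summed to 0 to 0.948 FPKM in flow cells and 0.43 to 0.623 FPKM in controls. Pgam2, the muscle-type mutase, was low, at 1.56, 0.544 and 2.77 FPKM in flow cells and 2.62, 2.16 and 2.64 FPKM in controls. It overlapped as well (log2 fold change -0.49, SE 0.34) and was 0.12 with flow library 3 alone, -0.16 without flow library 2, -0.80 without flow library 3, -0.82 with 0.1 FPKM added and -0.31 with the GC trend removed.

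Enolase, which forms phosphoenolpyruvate, was carried by Eno1, the ubiquitous alpha form, with 435.6, 434.1 and 539.0 FPKM in flow cells, against 689.4, 668.6 and 703.0 FPKM in controls. The lowest control stood well above the highest flow value. The log2 fold change was -0.35 with flow library 3 alone, -0.36 with the GC trend removed and -0.32 in the other deposited table, against -0.56 in the fit of all 6 libraries. Eno3, the muscle beta form, had 43.8, 55.1 and 65.9 FPKM in flow cells, against 75.5, 67.1 and 70.1 FPKM in controls, without overlap (log2 fold change -0.38, SE 0.16). The fold change was -0.10 with flow library 3 alone, -0.23 without flow library 1 and -0.24 with the GC trend removed. Eno2, the neuronal gamma form, had 6.11, 5.28 and 10.6 FPKM in flow cells and 8.63, 13.9 and 38.4 FPKM in controls. It overlapped, and its log2 fold change of -1.15 had an SE of 0.53, with control 3 far above the rest. It was -0.58 without control 3 and -1.76 in the other deposited table. Eno1 supplied 88.4% of enolase FPKM in flow cells and 88.3% in controls, and the summed FPKM of the 3 enolases was 485.5 to 615.6 in flow cells, against 749.6 to 811.4 in controls.

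The muscle isoforms Eno3, Pgam2 and Pfkm were present in cells with low levels of muscle transcripts. The 4 skeletal muscle markers Myh4, Acta1, Ckm and Mylpf summed to 8.04 to 14.4 FPKM in flow cells and 16.4 to 28.9 FPKM in controls. Mylpf, a fast-muscle myosin light chain, had 7.61, 1.98 and 1.57 FPKM in flow cells and 12.3, 13.5 and 7.05 FPKM in controls. Myh4 did not pass 0.212 FPKM in any library. The part of muscle transcripts in the values of these isoforms was not tested.

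Pyruvate kinase and lactate dehydrogenase close the pathway. Pkm (ENSMUSG00000032294, chromosome 9, 59656368 to 59679375, plus strand), which encodes the M1 and M2 splice forms counted here as 1 gene, had 685.7, 656.2 and 853.6 FPKM in flow cells, against 991.4, 909.8 and 1020 FPKM in controls. Ldha (ENSMUSG00000063229, chromosome 7, 46841475 to 46855627, plus strand), the muscle-type subunit, had 350.4, 321.1 and 470.1 FPKM in flow cells, against 547.0, 491.7 and 598.1 FPKM in controls. Both lay below all controls in flow cells, with log2 fold changes of -0.42 (SE 0.12) and -0.53 (SE 0.16), and of -0.19 and -0.21 with flow library 3 alone. With the GC trend removed they were -0.22 for Pkm, whose transcript GC content of 57.7% was the highest of the 34 genes, and -0.47 for Ldha. Ldhb, the heart-type subunit, was at 0.576 to 0.719 FPKM in flow cells and 0.752 to 0.852 FPKM in controls, so that Ldha made up 99.8% of the step in flow cells and 99.9% in controls.

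Of the lactate transporters, Slc16a1 was abundant and Slc16a3 was low. Slc16a1 (ENSMUSG00000032902, chromosome 3, 104638668 to 104658462, plus strand), which encodes MCT1, a carrier of lactate and pyruvate in both directions, had 99.6, 106.1 and 91.7 FPKM in flow cells, against 82.7, 89.8 and 88.3 FPKM in controls. The flow values lay above all controls by a narrow margin, with a log2 fold change of 0.19 (SE 0.09). It was 0.08 with flow library 3 alone and 0.04 with the GC trend removed, where the groups overlapped. Slc16a1 has a transcript GC content of 42.9%, the lowest of the 34 genes. Slc16a3, which encodes MCT4, the lactate exporter of glycolytic cells, had 0.468, 0.365 and 0.941 FPKM in flow cells, against 2.24, 1.07 and 6.98 FPKM in controls. Slc16a3 entered the test through its controls alone, so its lower value is fixed by the filter. The flow mean was 17.2% of the control mean, and the log2 fold change was -1.26 (SE 0.51), on a scale that understates changes of low genes. It was -2.05 with 0.1 FPKM added in place of 1, -0.72 without non-flow control 3 and -0.96 with flow library 3 alone. In the other deposited table the groups overlapped for Slc16a3, at 0.0669 to 1.61 FPKM in flow cells and 0.352 to 8.92 FPKM in controls.

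MCT1 thus dominated lactate transport transcripts in both groups. Slc16a3 was 0.609% of the step's FPKM in flow cells and 3.71% in controls. The log2 ratio of Slc16a1 to Slc16a3, each with 1 FPKM added, was 5.99 ± 0.37 in flow cells and 4.54 ± 0.99 in controls (SD, n = 3 each), without overlap. The difference of 1.45 had the smallest exact permutation p possible, 0.1, and an adjusted p of 0.333. This ratio rests on Slc16a3, whose lower value is fixed by the filter, so no conclusion is drawn from it. Without non-flow control 3 the difference was 0.92, and with no FPKM added it was 2.42. In the glycerol phosphate shuttle, which carries cytosolic electrons to the mitochondria, Gpd2, the mitochondrial enzyme, had 21.5, 24.6 and 21.8 FPKM in flow cells and 21.1, 18.4 and 22.8 FPKM in controls. It overlapped (log2 fold change 0.12, SE 0.11), and the cytosolic Gpd1 stayed at 0.0653 to 0.256 FPKM in flow cells and 0.0629 to 0.411 FPKM in controls.

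**Figure D2:**
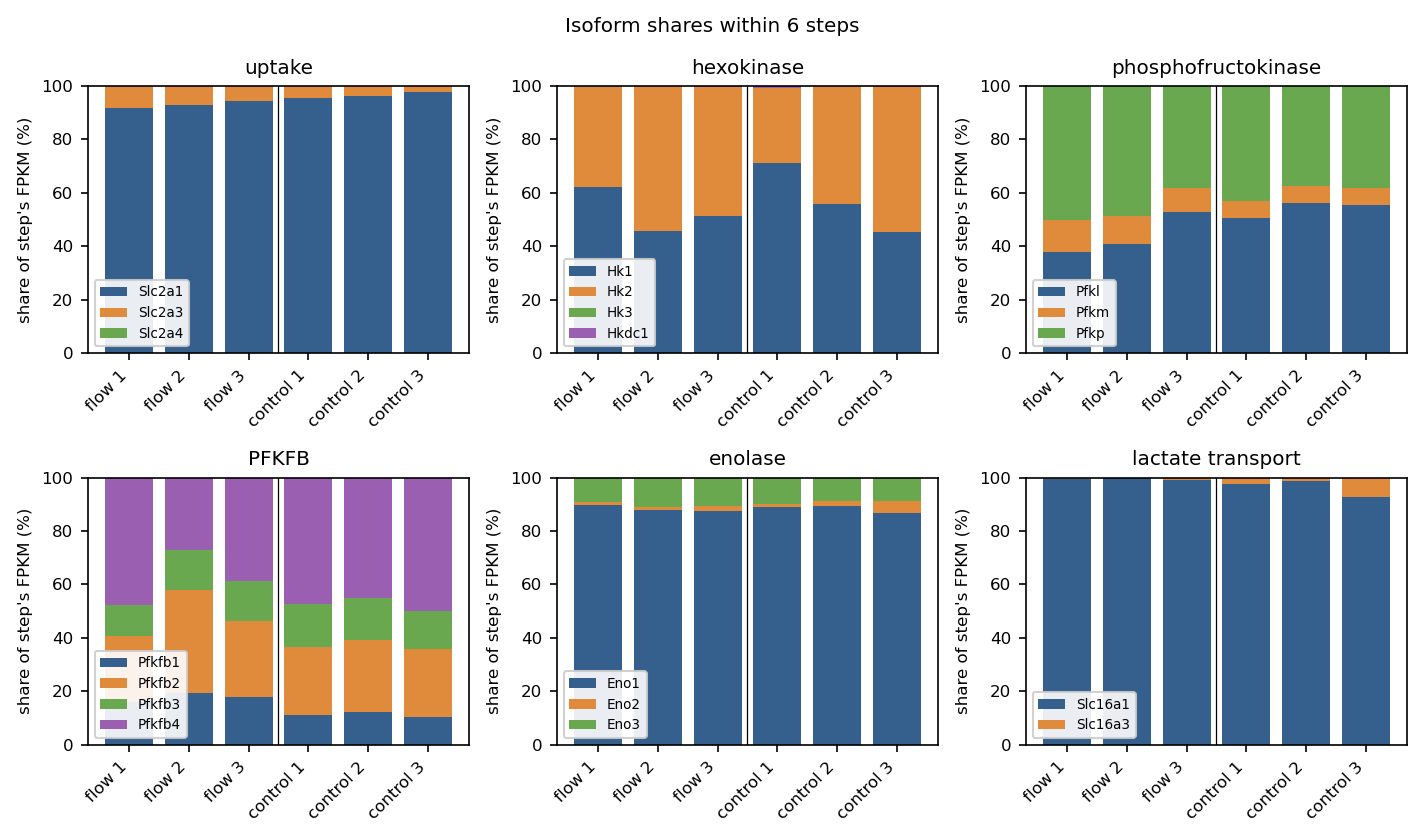
Share of each isoform in the summed FPKM of its step in each library, for 6 steps with several isoforms, with flow libraries left of the vertical line and non-flow controls right of it. Slc2a1 and Slc16a1 dominate their steps in all 6 libraries, hexokinase and phosphofructokinase are divided, and Slc16a3 is visible mainly in the controls.

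Dominant isoforms and lower isoforms were set side by side. Taking the highest or only gene of each step gave 17 genes, all tested. Of these, 11 had all flow values below the controls, 1 lay above and 5 overlapped, and their median log2 fold change was -0.48. Among all tested genes 8% lay below and 7.12% above. The 4 with a fold change above 0 were Adpgk, Bpgm, Slc16a1 and Gpd2. The other 17 genes, lower isoforms of a step, had 11 tested members with a median of -0.29. Of the 17, 4 lay below the controls, beside 6.95% of all genes with a value above 0. These 4 include Ldhb, which was not tested and lay above the controls in the other deposited table. They also include Slc16a3, whose lower value is fixed by the filter. Slc16a3 also entered the median. Low genes have wider relative error and their fold changes are drawn towards 0 by the added 1 FPKM, so the classes are not compared by a test. Of 10 isoform ratios none had an adjusted p under 0.333.

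**Figure D3:**
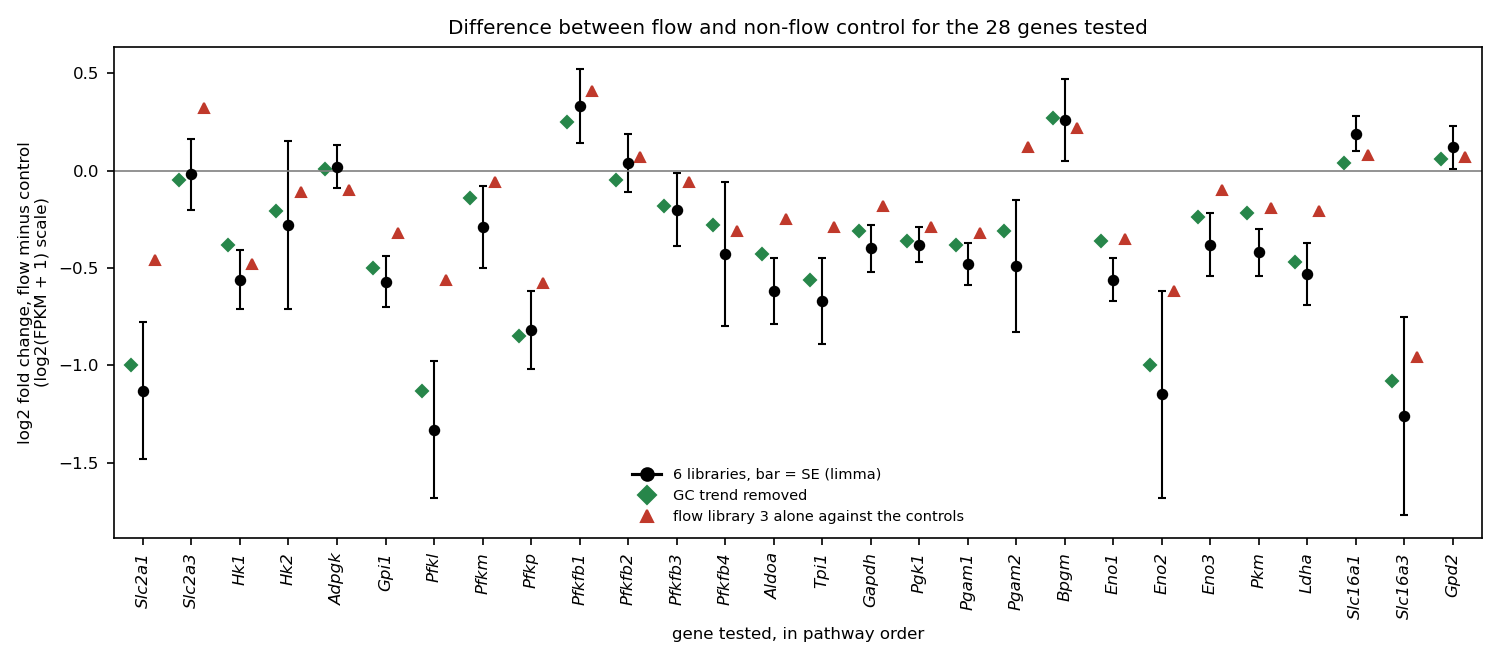
Log2 fold change of the 28 tested genes, as flow minus control after adding 1 FPKM, with limma standard errors (black), the same with each library's GC trend removed (green) and with flow library 3 alone against the controls (red). Most black and green points lie below 0, and the red points lie nearer to 0 for Slc2a1 (-0.46), Pfkl (-0.56) and Aldoa (-0.25).

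The level of a gene was set beside the pattern. Among all 1200 genes that averaged 100 FPKM or more, 12.1% had all flow values below the controls, and their median log2 fold change was -0.01. Of the 9 glycolysis and transport genes at this level, 8 had all flow values below the controls, with a median of -0.56, and the other was Tpi1. Gapdh ranked 41, Pkm 90, Tpi1 126, Eno1 134, Aldoa 145 and Ldha 184 by mean FPKM among protein-coding genes. Slc2a1 ranked 803 and Slc16a1 1190.

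The libraries did not contribute alike. The median log2 deviation of the 28 genes from their means over all 6 libraries was -0.28, -0.37 and 0.03 in flow libraries 1 to 3, and 0.20, 0.10 and 0.34 in controls 1 to 3, while that of all tested genes was -0.01 to 0.00. Control 3, whose title is adjacent to that of flow library 3, was the highest of all. The labels do not say which libraries share a day, so differences between days were not separated from these values. Flow library 3 lay close to the mean, between flow libraries 1 and 2 and the controls. Set alone against the controls, it gave a median log2 fold change of -0.20 for the 28 genes, and it lay below all 3 controls in 14 of them and above all 3 in 5. For 1 library against 3 these counts stand beside 25.5% of all tested genes below and 23.6% above. Without flow library 3 the median was -0.53, and 0 genes of the 28 were called (lowest adjusted p = 0.0678, limma). With each library's GC trend removed the median was -0.31, and 13 genes lay below the controls and 0 above, beside 5.75% of all tested genes below and 6.63% above. The 28 genes had a median transcript GC content of 52.7%, and the 14 that lay below the controls 54.2%, against 49.6% for all tested genes. Over all tested genes the median log2 fold change was 0.19 in the fifth with the lowest GC content and -0.21 in the fifth with the highest. The part of depth and base composition in the differences was not tested beyond these values.

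**Figure D4:**
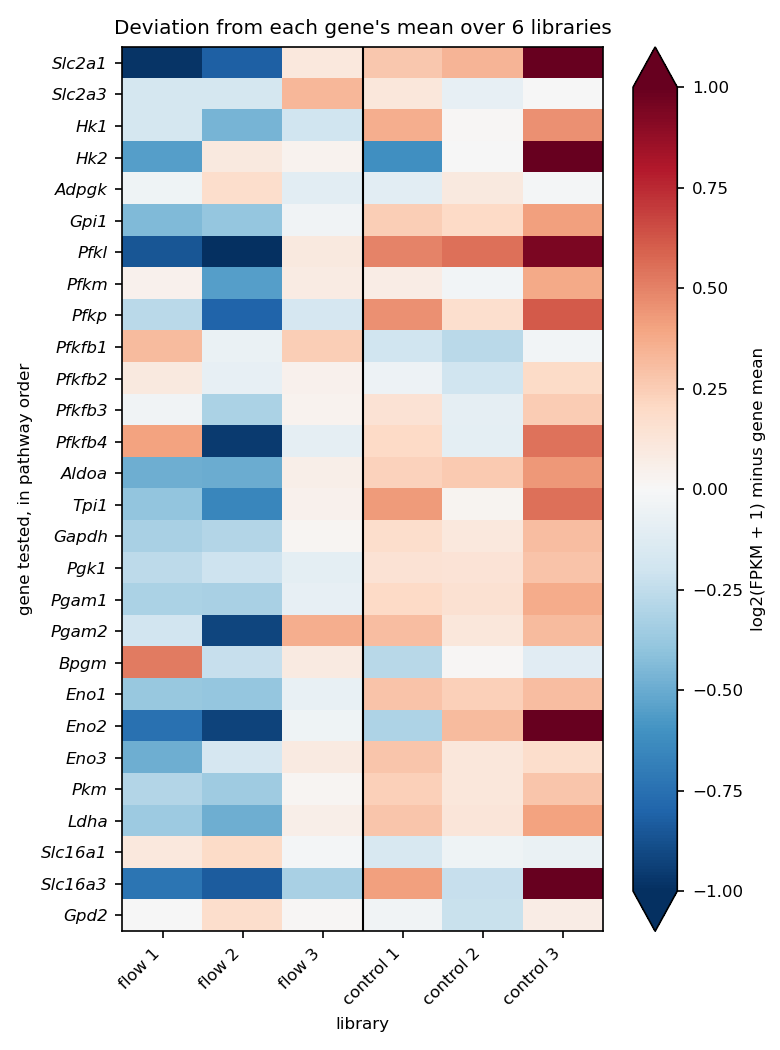
Deviation of each of the 28 tested genes from its mean over the 6 libraries, on the log2(FPKM + 1) scale, with flow libraries 1 to 3 left of the line and non-flow controls 1 to 3 right of it; colours saturate at 1 on either side. Flow libraries 1 and 2 are mostly below the mean (medians -0.28 and -0.37), flow library 3 is near it (0.03) and control 3 is highest (0.34).

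Several of the abundant genes have copies elsewhere in the genome, and their values are uncertain because reads of 50 bases from these stretches fit more than 1 gene. In the longest coding transcript of Gapdh, 82.5% of the words of 50 bases also occurred in another annotated gene, with 222 such genes. The share was 72.2% for Eno1, mostly shared with Eno1b, 68% for Pgk1, 41.5% for Pgam1, 34.4% for Pkm, 25.3% for Gpi1 and 16.6% for Ldha. It was 17.1% for Pfkp, all of it with Pitrm1, 13.5% for Aldoa and 7.51% for Tpi1. Lower shares were 1.74% for Slc2a1, 2.55% for Hk1, and 0% for Hk2, Eno3, Slc16a1 and Slc16a3. Genes with large and with small shares were among those below the controls, and no gene of the 34 shared a word with another of the 34. Exons of a second gene on the same strand overlap 15.3% of the exon bases of Pkm, 17.4% of Pfkfb2 and 10.2% of Pfkm.

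Other transporters and isozymes were low. Of 20 further genes, among them glucokinase, liver aldolase, liver pyruvate kinase and the sodium-coupled glucose transporters, 2 had a mean of at least 1 FPKM, and 0 of these were called. Slc2a8, an intracellular glucose transporter, had 3.01, 3.85 and 2.65 FPKM in flow cells and 3.64, 3.47 and 5.31 FPKM in controls. Slc2a10 had 2.25, 2.19 and 3.56 FPKM in flow cells and 2.52, 2.11 and 2.4 FPKM in controls. Both overlapped. The low gene Slc2a6, which was not tested, had 0.903, 1.11 and 1.1 FPKM in flow cells, against 0.662, 0.62 and 0.569 FPKM in controls. All its flow values lay above the controls, a pattern found in 5.12% of all genes with a value above 0.

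Partners and branch points of the pathway had fold changes on both sides of 0, while their summed level, to which Bsg contributed most, was 1801 to 2003 FPKM in flow cells and 2109 to 2223 FPKM in controls. Of 23 genes 22 were found, 20 were tested and 0 were called, with 11 fold changes below 0, 9 above 0 and a median of -0.05. Of these 20, 3 had all flow values below the controls and 1 had them above, beside 8% and 7.12% of all tested genes. Pgm2, by its mouse symbol a phosphoglucomutase that links glycogen and glucose 6-phosphate, had 26.3, 22.6 and 30.9 FPKM in flow cells, against 41.1, 38.1 and 55.3 FPKM in controls (log2 fold change -0.72). Txnip, an arrestin that restrains glucose uptake, had 84.1, 95.2 and 84.4 FPKM in flow cells, against 151.9, 136.4 and 98.4 FPKM in controls (-0.53). Bsg, the chaperone that brings MCT1 and MCT4 to the membrane, was abundant and had 643.2, 716.9 and 690.9 FPKM in flow cells, against 754.8, 780.6 and 786.2 FPKM in controls. Mpc2, a subunit of the mitochondrial pyruvate carrier, was the 1 gene with all flow values above the controls, at 39.6, 33 and 22.6 FPKM in flow cells, against 21.8, 19.9 and 17.1 FPKM in controls (log2 fold change 0.64). Its partner subunit Mpc1 overlapped, at 63.5, 70.9 and 54.5 FPKM in flow cells and 60.9, 62.3 and 58.7 FPKM in controls. Enzymes of the pentose phosphate branch overlapped too, such as Tkt, transketolase, with 150.6, 148.1 and 225.8 FPKM in flow cells and 221.9, 216.1 and 225.5 FPKM in controls.

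Transcription factors and oxygen sensors that are known to act on glycolysis genes were set beside these values. Of 16 genes 12 were tested and 0 were called. All 12 fold changes lay below 0, with a median of -0.20. Some were within their error of 0, such as Mlxip (-0.02, SE 0.14) and Mlx (-0.04, SE 0.12). In 2 of the 12 all flow values lay below the controls and in 0 above, beside 8% and 7.12% of all tested genes. Hif1a, the oxygen-regulated HIF subunit, which is controlled mainly as a protein, had 14.5, 18.1 and 18.3 FPKM in flow cells and 18.6, 15.9 and 20 FPKM in controls, and overlapped. Egln1, the prolyl hydroxylase PHD2 that marks HIF for destruction and is itself a HIF target, had 13.7, 9.79 and 17.7 FPKM in flow cells, against 29.3, 21.7 and 37.7 FPKM in controls. All its flow values lay below the controls, with a log2 fold change of -1.06. Sp1, a general activator of GC-rich promoters, had 19.2, 19.4 and 18.2 FPKM in flow cells, against 35.3, 23.9 and 21.4 FPKM in controls, without overlap. Myc, an activator of many glycolysis genes, had 115.7, 145.0 and 246.4 FPKM in flow cells and 141.7, 166.7 and 275.4 FPKM in controls, and overlapped.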

How the data were processed

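The authors deposited 2 tables of FPKM, with 1 column per library, made per the submitters' processing notes with CASAVA 1.8.2, TopHat2 2.0.9 and Cufflinks 2.2.1 on build mm10. Annotation, counting settings and use of strand were not given in the sources used here. Per the labels' protocols, libraries were sequenced as single-end reads of 50 cycles.

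The table that names all 6 libraries was tested. In the other, 2 flow columns match no library title, so it served as an alternative. Genes averaging 1 FPKM or more entered a limma fit (version 3.58.1, R 4.3.3; lmFit, then eBayes with a variance trend and no covariate) of log2(FPKM + 1), with p-values adjusted over 11957 genes with a threshold of 0.05. The script was tested on simulated data. Isoform ratios were compared by exact permutation in scipy 1.17.1. An estimate of depth treats the smallest FPKM step as 1 read; 74.4% to 81% of low values came out whole within 0.02, so no reads were recovered for a count test. No 2 libraries were identical. Coordinates, GC content and shared words came from GENCODE M21 (mm10), and promoter windows from RefSeq.

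By rule, each of the 34 genes averaging 1 FPKM or more is given per library and the others by range or at 0, with Aldoc also per library; genes of the other lists were picked as examples after their values were seen. The genes and lists were chosen with earlier results of these data known. Alternatives changed the added value, the filter, the scaling, the variance model, the pairing, the gene set, the GC trend, the table and the libraries used. The fit without flow libraries 1 and 2, and that joining protein-coding genes with pairs, were added after the data were seen.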

Additional observations from a re-analysis of the deposited data

How the results depend on the processing

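Of the 28 tested genes, 22 kept the direction of their difference under every alternative in which they were tested, 17 or 18 in all. The other 6 had small or uncertain differences. Alternatives that changed only the filter, the variance model, the gene set or the pairing return the same fold change by construction. They could not turn a direction and add nothing to this count. In the other deposited table the log2 fold change was -0.08 for Adpgk, -0.09 for Pfkfb1 and -0.19 for Pfkfb2. With flow library 3 alone against the controls it was -0.10 for Adpgk, 0.12 for Pgam2 and 0.32 for Slc2a3, and the median of the 28 genes was -0.20. With the GC trend removed Pfkfb2 was at -0.05, and with quantile normalization Slc2a3 was at 0.04. Leaving out 1 library at a time gave -0.06 to 0.08 for Adpgk, -0.05 to 0.14 for Pfkfb2, -0.19 to 0.07 for Slc2a3 and -0.66 to 0.17 for Hk2. The cause was not tested.

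The count of these genes called was 0 in every fit but one limited to protein-coding genes in which libraries with adjacent titles were paired, a replicate block that the labels do not give, where it was 1 (Slc2a1, adjusted p = 0.0381, limma), among 15 of all 10460 genes. With the same pairs over all genes it was 0, with a lowest adjusted p of 0.349. The count of genes with all flow values above the controls was 0 with the GC trend removed, 2 with quantile normalization, 5 with flow library 3 alone and 1 to 3 with 1 library left out, beside 6.63%, 8.3%, 23.6% and 9.93% to 22.8% of all tested genes. Flow library 2 had 5750000 reads, so its values near 0.521 FPKM rest on about 3 reads per kilobase.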
